A study of Homo sapiens with 6 samples.

Results

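RNA sequencing of HCT116 cells, a human colorectal carcinoma line, contained 15 protein-coding genes, of 19672 in the table, that were counted at much higher levels in every ZK3-KO library than in any ZK3-WT library. They are HAS3, CD33, ADGRD1, LY6K, BMP2, AOAH, TTN, SNTG2, KIF1A, KIF19, DLC1, TBX4, FAM50B, SPATA18 and SAMD3. The genes were chosen by the measured values of all 6 libraries. The lowest of the 3 ZK3-KO values had to be at least 0.5 CPM (counts of a gene per 1000000 counted reads of the library) and at least 4 times the highest ZK3-WT value. Of the 17 protein-coding genes that met both limits (0.0864% of 19672), DPEP1 and ANXA10 were left out by the rule. The levels of the 15 genes are therefore given as a description, without a test.

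ZK3-WT is the parental HCT116 line with wild type ZKSCAN3, and ZK3-KO is an HCT116 line in which CRISPR/Cas9 was directed to ZKSCAN3 so as to remove the start codon in its first exon. The labels name no other treatment. Both lines were grown in DMEM with FBS, and each was sequenced as 3 libraries of polyadenylated RNA with 60827060 to 69739215 counted reads. The knockout line was obtained after puromycin and single cell selection, so an effect of the clone and an effect of the knockout cannot be told apart. In these bulk libraries a larger number of cells that express a gene and more RNA per cell cannot be told apart either.

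ZKSCAN3 encodes a zinc finger protein with a KRAB and a SCAN domain that is known as a repressor of genes of autophagy and lysosomes. Promoters of widely expressed genes are usually rich in CpG dinucleotides, whereas those of many tissue-restricted genes are not. The 15 genes are not a known pathway. By textbook role, 6 of them act at the cell surface or outside the cell, 5 act on the cytoskeleton, and 4 have other roles. Those roles were assigned after the genes were known. Values of the 3 libraries of a group are given in the order of replicates 1, 2 and 3.

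ZKSCAN3 itself stood at 29.1, 24.2 and 20.2 CPM in the parental libraries and at 25.7, 24.7 and 12.4 CPM in the knockout libraries, where the low value is that of replicate 3 (log2 fold change -0.16 ± 0.268, standard error, FDR 0.797 by the quasi-likelihood test of edgeR, the test used for all genes outside the 15). The count covers the whole transcript and does not test a deletion of the start codon. ZK3-KO replicate 3 stood apart from the other libraries, with the lowest normalization factor of edgeR's TMM method (0.91 against 0.994 to 1.03). On log2 CPM it correlated at 0.963 and 0.95 with ZK3-KO replicates 1 and 2, and at 0.965 with ZK3-WT replicate 3. It was thus no closer to the other ZK3-KO libraries than to that parental library. ZK3-KO replicates 1 and 2 correlated at 0.985 with each other. Of the 9 colon epithelium markers examined, none was without reads, and their summed level was 3050 to 3810 CPM in the parental and 2720 to 4950 CPM in ZK3-KO libraries. The blood markers PTPRC and CD3E and the neuron marker STMN2 had no read in any library. The summed levels of the 7 fibroblast markers were 46.3 to 58.1 CPM and 32.6 to 90.3 CPM in the parental and ZK3-KO libraries, those of the 5 endothelium markers 1.65 to 2.45 and 0.846 to 2.61 CPM, those of the 6 blood markers 3.78 to 11.3 and 4.80 to 8.18 CPM, and those of the 5 neuron markers 104 to 177 and 42.1 to 78.2 CPM. No gene of these marker lists passed an FDR of 0.05, where 150 (0.817%) of all 18366 genes tested passed upward and 226 (1.23%) downward. These counts were 88 and 294 with limma on log2(TPM + 1), and 1399 and 1459 in edgeR without ZK3-KO replicate 3.

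To show the DNA from which these genes are transcribed, the 250 bases before the start are given for 6 of them. HAS3 was the most abundant of the genes and SNTG2 had the largest ratio of the lowest ZK3-KO to the highest ZK3-WT value, TTN and CD33 had almost no CpG, SAMD3 has a neighbour that starts close by on the other strand, and FAM50B is a retrogene. The sequences are from RefSeq on GRCh38.p14 and run 5′ to 3′ toward the start. Capitals mark matches, on either strand, to the CAAT box with the letters CCAAT, to the GC box with the letters GGGCGG, to the E-box with the letters CACGTG, to a core of the CTCF motif with the letters CAGGGGGC, or to the site bound by a pair of p53 subunits. A search was also made for the TATA box with the letters TATAAA, for an AP-1 site with the letters TGANTCA and for an ETS site with the letters CCGGAAG.
HAS3, chr16:69107290-69107539, forward strand: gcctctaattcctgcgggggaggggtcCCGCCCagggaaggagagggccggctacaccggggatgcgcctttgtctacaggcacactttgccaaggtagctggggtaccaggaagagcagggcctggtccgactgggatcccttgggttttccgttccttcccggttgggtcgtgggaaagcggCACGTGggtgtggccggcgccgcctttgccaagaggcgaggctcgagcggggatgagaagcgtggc
SNTG2, chr2:950599-950848, forward strand: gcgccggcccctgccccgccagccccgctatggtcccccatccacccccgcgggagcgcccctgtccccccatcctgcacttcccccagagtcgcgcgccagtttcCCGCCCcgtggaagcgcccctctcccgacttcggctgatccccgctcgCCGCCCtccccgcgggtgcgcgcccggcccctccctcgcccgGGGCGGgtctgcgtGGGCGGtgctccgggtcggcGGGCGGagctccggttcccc
TTN, chr2:178807424-178807673, reverse strand: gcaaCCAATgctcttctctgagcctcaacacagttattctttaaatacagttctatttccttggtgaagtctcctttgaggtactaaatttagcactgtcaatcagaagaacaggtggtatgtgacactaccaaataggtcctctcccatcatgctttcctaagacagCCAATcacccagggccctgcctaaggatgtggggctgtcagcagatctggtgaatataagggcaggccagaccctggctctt
CD33, chr19:51224830-51225079, forward strand: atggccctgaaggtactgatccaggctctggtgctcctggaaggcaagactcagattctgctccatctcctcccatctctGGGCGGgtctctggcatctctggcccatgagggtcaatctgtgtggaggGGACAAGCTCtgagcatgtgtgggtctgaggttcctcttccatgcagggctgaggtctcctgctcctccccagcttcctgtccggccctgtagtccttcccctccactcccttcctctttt
SAMD3, chr6:130365869-130366118, reverse strand: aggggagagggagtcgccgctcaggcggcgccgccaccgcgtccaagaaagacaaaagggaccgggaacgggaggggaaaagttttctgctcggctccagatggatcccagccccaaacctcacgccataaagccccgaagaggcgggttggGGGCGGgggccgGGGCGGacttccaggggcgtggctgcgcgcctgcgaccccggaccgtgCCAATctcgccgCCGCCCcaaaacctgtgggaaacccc
FAM50B, chr6:3849123-3849372, forward strand: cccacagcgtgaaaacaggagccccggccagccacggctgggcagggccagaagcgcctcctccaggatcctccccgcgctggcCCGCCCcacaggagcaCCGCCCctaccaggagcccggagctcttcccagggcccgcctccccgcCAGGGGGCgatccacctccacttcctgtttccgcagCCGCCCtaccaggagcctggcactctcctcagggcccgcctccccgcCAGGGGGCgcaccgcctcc
In HAS3 the matches are a GC box and an E-box, which begin 223 and 66 bases before the start. SNTG2 has 5 GC boxes and 79.6% G and C. TTN has a pair of CAAT boxes, no GC box and no CpG at all in these bases. CD33 has 1 GC box and 1 p53 site. SAMD3 has a CAAT box and 3 GC boxes, and FAM50B has 3 GC boxes and the CTCF core at 2 places, 102 and 19 bases before the start.

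Promoters were matched for 10 of the 15 genes (14 promoters, since KIF1A and SAMD3 have 3 each) and for 15515 genes in all (21845 promoters). The promoter reference held no entry for BMP2, ADGRD1, KIF19, DLC1 and LY6K, so the values below do not cover them. The ratio of observed to expected CpG was at least 0.6 in 5 of the 14 promoters (35.7%) and in 60.6% of all promoters, and its median was 0.527 and 0.714, respectively. It was 0.0 for TTN, 0.0938 for CD33, 0.557 for FAM50B, 0.689 for HAS3, 0.847 for the SAMD3 start shown and 0.887 for SNTG2. The 5 promoters at or above 0.6 belonged to 5 of the 10 matched genes (SNTG2, KIF1A, SPATA18, SAMD3 and HAS3). The other starts were at 0.488 and 0.547 for KIF1A and at 0.129 and 0.321 for SAMD3. The shares by promoter thus count KIF1A and SAMD3 3 times each, and differ from shares by gene. The plot of CpG content shows these 14 promoters, which ranged from 0.0 to 1.06, against all promoters. The median content of G and C was 62.4% and 62.0%, respectively. A GC box was found in 7 of the 14 promoters (against 54.1% of all), a CAAT box in 4 (28.6% against 32.8%), an E-box in 2 (14.3% against 7.43%), a p53 site in 2 (14.3% against 5.29%) and the CTCF core in 1 (7.14% against 4.93%). The TATA box, the AP-1 site and the ETS site were in none of the 14, and in 8.94%, 5.37% and 10.8% of all promoters. With so few promoters each of these shares rests on a handful of matches, and no motif was held by more of the promoters than the GC box.

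**Figure D1:**
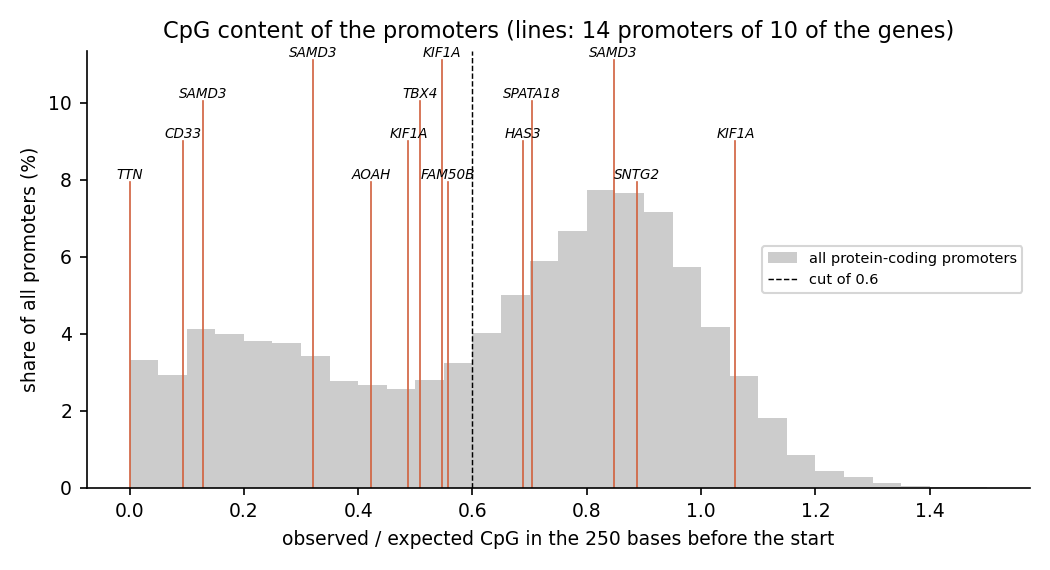
Ratio of observed to expected CpG (x axis) in the 250 bases before the start; grey bars are the share of all 21845 promoters (y axis, %), and lines mark the 14 promoters of 10 of the genes, their heights chosen for legibility. TTN lies at 0.0 and a KIF1A start at 1.06, and 5 of the 14 promoters lie at or above the dashed line at 0.6.

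The most abundant of the genes at the cell surface was HAS3 (NCBI Gene 3038, chr16:69139556-69152622 of GRCh37), a membrane enzyme that makes hyaluronan, the long sugar polymer of the extracellular matrix. HAS3 was at 29.5, 25.3 and 17.9 CPM in the parental libraries and at 271, 290 and 200 CPM in the knockout libraries. The lowest ZK3-KO value was 6.79 times the highest ZK3-WT value, and the means were 24.2 ± 5.85 and 254 ± 47.5 CPM (SD, n = 3 each), a ratio of 10.5. HAS3 was thus plainly transcribed in the parental line, at a level near the median of 21.0 CPM of protein-coding genes with any read there. It alone made up 72.5% of the summed mean level of the 15 genes in ZK3-KO cells. Of the 18 other genes examined that make, bind or degrade hyaluronan, 10 were tested and none passed an FDR of 0.05 in either direction (median log2 fold change -0.0904, against 0.0179 over all 18366 genes tested). CD44, the main hyaluronan receptor, was at 577, 743 and 514 CPM in the parental and 487, 647 and 427 CPM in the knockout libraries (log2 fold change -0.15, FDR 0.746). HAS2, another hyaluronan synthase, was below 1 CPM in all 6 libraries, and HAS1 had no read.

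**Figure D2:**
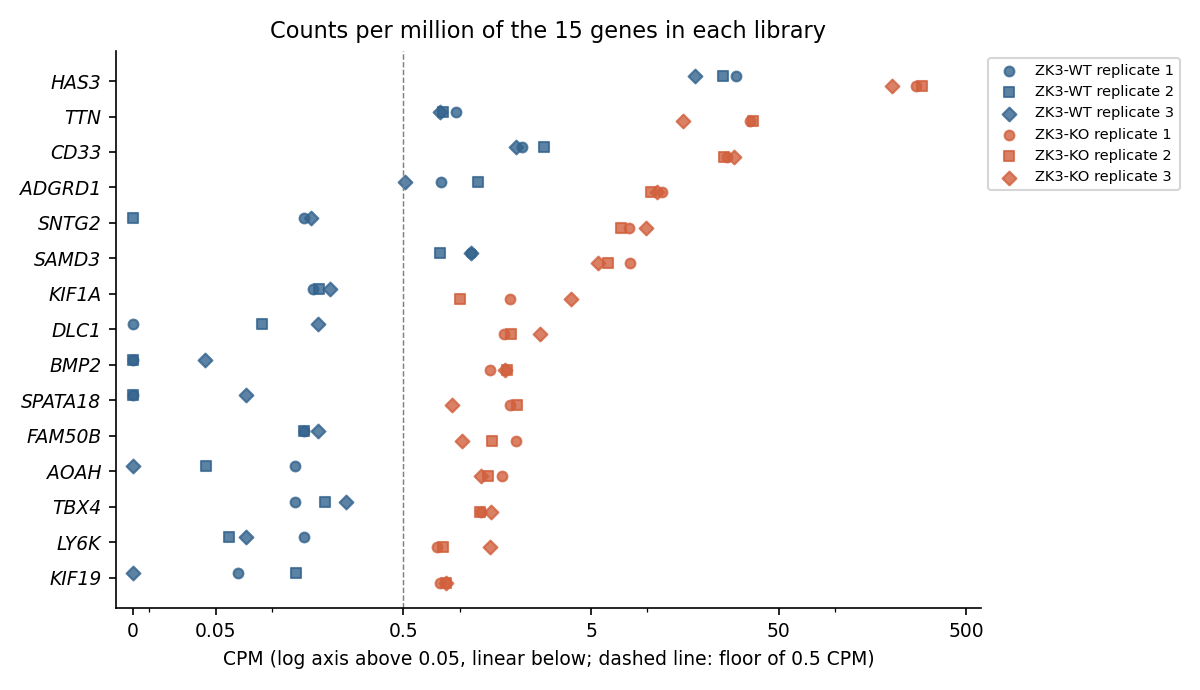
CPM of each of the 15 genes (rows) in the 3 ZK3-WT libraries (blue) and the 3 ZK3-KO libraries (orange), on a log axis above 0.05 and a linear one below; the dashed line is the floor of 0.5 CPM. ZK3-WT values reach 29.5 CPM for HAS3 and lie below the floor in every library for 10 genes, and the gap between the groups in each row is a consequence of the rule.

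Among the receptors, CD33 (NCBI Gene 945, chr19:51728320-51747115), a sialic acid-binding receptor known from myeloid cells, was at 2.15, 2.82 and 2.00 CPM in the parental libraries and at 26.6, 25.7 and 28.8 CPM in the knockout libraries. Its lowest ZK3-KO value was 9.12 times its highest ZK3-WT value, and the 3 ZK3-KO libraries lay closer together than for most of the genes (27.0 ± 1.61 CPM, SD, n = 3). Scaled for length, CD33 was the second most abundant of the genes, at 36.3 ± 0.300 TPM (a level scaled for transcript length) in ZK3-KO cells. Of 14 other receptors of the Siglec family, 7 had no read in any library, and of the 2 tested none passed an FDR of 0.05 (median log2 fold change -0.794). The summed level of the 14 was 4.89 to 9.65 CPM in the parental and 0.817 to 8.18 CPM in ZK3-KO libraries. A list of 23 other genes of myeloid cells had a summed level of 11.3 to 18.1 CPM in the parental and 6.54 to 18.0 CPM in ZK3-KO libraries. Of these, 8 had no read in any library, among them TYROBP and CSF3R, and of the 7 tested none passed.

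ADGRD1 (NCBI Gene 283383, chr12:131438452-131626014), an adhesion G protein-coupled receptor, was at 0.789, 1.25 and 0.510 CPM in the parental libraries and at 12.0, 10.5 and 11.3 CPM in the knockout libraries. The lowest ZK3-KO value was 8.36 times the highest ZK3-WT value, and the spread among ZK3-KO libraries was small (highest over lowest, 1.15). Of 28 other adhesion G protein-coupled receptors, 14 were tested and none passed in either direction (median log2 fold change -0.269).

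LY6K (NCBI Gene 54742, chr8:143781529-143786545), a surface protein held by a lipid anchor and known from testis, was at 0.148, 0.0590 and 0.0728 CPM in the parental and 0.755, 0.817 and 1.44 CPM in the knockout libraries. These are 4 to 9 reads per ZK3-WT library and 48, 57 and 98 reads in the ZK3-KO libraries, so the counting error of LY6K is large. Of 21 relatives of the LY6 family, 10 were tested and none passed (median log2 fold change 0.284).

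Outside the cell act BMP2 and AOAH. BMP2 (NCBI Gene 650, chr20:6748333-6760893), a secreted growth factor of the TGF-β superfamily, had no read in ZK3-WT replicates 1 and 2 and 3 reads in replicate 3, and 92, 124 and 119 reads in the ZK3-KO libraries (1.45, 1.78 and 1.75 CPM). The ratio of the pooled levels was 109, with an exact 95% interval of 37.1 to 533 that covers counting error only. The same reads chose BMP2, and the interval allows neither for that choice nor for the spread between libraries, so it is no test. Of 10 relatives 7 were tested, none passed upward and 1, BMP5, passed downward. BMP5 was at 0.954, 0.767 and 0.525 CPM in the parental libraries and had no read in the ZK3-KO libraries, where 3 reads would be 0.0430 to 0.0472 CPM (FDR 0.0154; up to 0.113 when 1 of ZK3-WT replicates 1, 2 and 3 or ZK3-KO replicate 1 was left out). BMP4, the most abundant relative named here, was at 72.1, 75.6 and 63.9 CPM in the parental and 51.1, 84.9 and 26.3 CPM in the knockout libraries (log2 fold change -0.32, FDR 0.678).

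AOAH (NCBI Gene 313, chr7:36552549-36764154), an enzyme of myeloid cells that removes acyl chains from bacterial lipopolysaccharide, had 8, 3 and 0 reads in the ZK3-WT libraries (0.132, 0.0443 and 0 CPM) and 106, 99 and 88 reads in the ZK3-KO libraries (1.67, 1.42 and 1.30 CPM). The lowest ZK3-KO value was 9.85 times the highest ZK3-WT value. CD33 and AOAH are both known from myeloid cells, and the values of the myeloid list are given with CD33.

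The group of 5 genes of the cytoskeleton was led by TTN (NCBI Gene 7273, chr2:179390716-179695529, reverse strand), the giant spring protein of the sarcomere. TTN was at 0.954, 0.812 and 0.787 CPM in the parental and 35.4, 36.7 and 15.5 CPM in the knockout libraries. The lowest ZK3-KO value, that of replicate 3, was 16.3 times the highest ZK3-WT value. TTN has a very long transcript, and on the TPM scale it stood at 0.543 ± 0.245 in ZK3-KO cells (SD, n = 3), below 12 of the other genes. Among 38 other genes of the sarcomere, 20 were tested, none passed upward and 1, MYL2, passed downward (median log2 fold change 0.248). MYL2 was at 0.411, 0.236 and 0.233 CPM in the parental libraries and had no read in ZK3-KO libraries (FDR 0.0354; 0.0623 with the replicate block, and up to 0.171 when any library other than ZK3-KO replicate 3 was left out).

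TTN-AS1, a non-coding RNA on the strand opposite TTN (chr2:179385910-179644690), went the other way. It was at 6.33, 6.52 and 5.10 CPM in the parental and 1.92, 1.91 and 1.04 CPM in the knockout libraries, without overlap between the groups. It fell by 1.81 ± 0.276 log2 units (standard error, FDR 0.0254). The FDR rose above 0.05, to as much as 0.152, when 1 of ZK3-WT replicates 1, 2 and 3 or ZK3-KO replicates 1 and 2 was left out. The strand setting of the authors' counting is not given in the sources used here, so reads of TTN and TTN-AS1 in the shared stretch may not be fully separated.

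SNTG2 (NCBI Gene 54221, chr2:946535-1371385), a syntrophin adaptor that binds the dystrophin complex and is known from neurons, had 9, 0 and 11 reads in the ZK3-WT libraries (0.148, 0 and 0.160 CPM) and 506, 502 and 670 reads in the ZK3-KO libraries (7.96, 7.20 and 9.86 CPM), with a lowest ZK3-KO value 44.9 times the highest ZK3-WT value. That ratio was the largest of the 15 genes, whereas by the ratio of means SNTG2 (81.2) came after BMP2 (114), which had 3 reads in the ZK3-WT libraries. Of 16 other genes of the dystrophin complex, 9 were tested and none passed. Related syntrophins were expressed in both lines. SNTB2 was at 74.7 ± 16.2 and 66.9 ± 35.4 CPM (SD, n = 3 each) and SNTB1 at 13.3 ± 5.09 and 9.92 ± 1.35 CPM in the parental and ZK3-KO cells, respectively.

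Of the kinesin motors, KIF1A (NCBI Gene 547, chr2:241653178-241763710), which carries vesicles along axons, was at 0.164, 0.177 and 0.204 CPM in the parental and 1.86, 1.00 and 3.90 CPM in the knockout libraries. It varied most of the 15 genes among the ZK3-KO libraries, with replicate 3 at 3.89 times replicate 2. KIF19 (NCBI Gene 124602, chr17:72322349-72351959), which acts at the tips of motile cilia, was at 0.0658, 0.133 and 0 CPM and at 0.786, 0.846 and 0.839 CPM in the parental and knockout libraries, respectively. KIF19 had the lowest mean of the genes in ZK3-KO cells and the smallest spread among those libraries (highest over lowest, 1.08). Of 40 other kinesins, 36 were tested and none passed in either direction, with a median log2 fold change of 0.0372. The close relatives of KIF1A were abundant in both lines. KIF1B was at 119 ± 21.1 and 117 ± 49.6 CPM (SD, n = 3 each) and KIF1C at 217 ± 12.4 and 203 ± 38.2 CPM in the parental and knockout lines, respectively. Of 17 genes of motile cilia, 11 were tested and none passed (median log2 fold change -0.164).

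DLC1 (NCBI Gene 10395, chr8:12940870-13462119), a GTPase-activating protein that acts on the actin cytoskeleton, was at 0, 0.0886 and 0.175 CPM in the parental and 1.71, 1.88 and 2.66 CPM in the knockout libraries. The lowest ZK3-KO value was 9.81 times the highest ZK3-WT value. STARD13, a relative of DLC1, was at 4.69 ± 1.21 CPM in the parental and 3.20 ± 1.13 CPM in ZK3-KO cells (SD, n = 3 each).

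The only DNA-binding transcription factor among the genes was TBX4 (NCBI Gene 9496, chr17:59529765-59562471), a T-box factor of the hindlimb and lung. It was at 0.132, 0.192 and 0.248 CPM in the parental and 1.29, 1.28 and 1.46 CPM in the knockout libraries, and its lowest ZK3-KO value was 5.15 times its highest ZK3-WT value. Of 15 other T-box factors, 9 were tested and none passed. TBX2, which lies beside TBX4 in the genome, had 1.17, 1.28 and 0.889 CPM in the parental and 1.12, 0.401 and 2.93 CPM in the knockout libraries (log2 fold change 0.54, FDR 0.717).

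FAM50B (NCBI Gene 26240, chr6:3849607-3851554) is an imprinted retrogene, a copy of the mRNA of FAM50A on the X chromosome. FAM50B was at 0.148, 0.148 and 0.175 CPM in the parental and 2.00, 1.49 and 1.03 CPM in the knockout libraries. FAM50A was at 35.9, 37.8 and 42.4 CPM and at 35.2, 33.9 and 59.0 CPM, respectively (log2 fold change 0.25, FDR 0.675). Because the copies are similar, some reads of FAM50B may come from FAM50A. This was not tested.

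SPATA18 (NCBI Gene 132671, chr4:52917470-52963465), a p53 target that acts on mitochondria and is known from testis, had no read in ZK3-WT replicates 1 and 2 and 5 reads in replicate 3. It had 117, 140 and 62 reads in the ZK3-KO libraries (1.84, 2.01 and 0.913 CPM), so replicate 3 held the fewest. The ratio of the pooled levels was 62.5, with an exact 95% interval of 26.5 to 194 for counting error only. As with BMP2, the interval allows neither for the choice of the gene by these reads nor for the spread between libraries. Of 29 other p53 targets 28 were tested, 1 passed upward and none downward, with a median log2 fold change of 0.150. The 1 that passed was BAX, which promotes cell death, at 36.7, 27.8 and 33.7 CPM in the parental and 53.3, 60.3 and 52.1 CPM in the knockout libraries (log2 fold change 0.84 ± 0.157, standard error, FDR 0.0469). BAX passed in 4 of 14 alternatives and had an FDR of 0.0584 with the replicate block and of up to 0.230 elsewhere. Among these 4 was the unadjusted p under 0.05 of the main fit, which a gene past the FDR always meets.

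SAMD3 (NCBI Gene 154075, chr6:130465460-130686570, reverse strand), a protein with a sterile alpha motif, was at 1.15, 0.782 and 1.15 CPM in the parental and 8.04, 6.17 and 5.42 CPM in the knockout libraries. Its lowest ZK3-KO value was 4.71 times its highest ZK3-WT value, the smallest ratio of the 15 genes. TMEM200A, which encodes a membrane protein, starts 592 bp from the start of SAMD3 on the opposite strand (chr6:130687162-130764212). By these GENCODE positions on GRCh37 both genes lead away from a common stretch of DNA. The SAMD3 sequence shown above lies before a RefSeq start on GRCh38, and its place relative to that stretch was not examined. TMEM200A is not among the 15 genes, since its lowest ZK3-KO value was 2.66 times its highest ZK3-WT value. It was at 10.7, 6.11 and 9.40 CPM in the parental and 43.2, 41.4 and 28.4 CPM in the knockout libraries, without overlap. It rose by 2.18 ± 0.252 log2 units (standard error, FDR 0.00977) and passed in 12 of 14 alternatives, with an FDR of 0.0625 without ZK3-WT replicate 3 and 0.0548 without ZK3-KO replicate 1. The 12 include the unadjusted p under 0.05 of the main fit, which a gene past the FDR always meets.

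The surroundings of the other genes were examined in the same way. Within 500 kb of the start of any of the 15 genes, 83 other protein-coding genes were tested, with a median log2 fold change of -0.0256 against 0.0179 over all genes tested. This median changed sign with the window, to 0.168 within 250 kb and 0.0713 within 1 Mb. TMEM200A was the 1 gene of the 83 that passed upward, and none passed downward. When ZK3-KO replicate 3 was left out, 8 of the 83 passed upward and 12 downward. Over all 18872 genes tested in that setting, 1399 passed upward and 1459 downward. None of the 83 passed when either ZK3-KO replicate 1 or parental replicate 3 was left out. Few of all genes passed there, with 16 upward and 58 downward of 18864 and 11 upward and 46 downward of 18838, respectively. Just above the threshold lay LRRC66, 30941 bp upstream of SPATA18, at 0.444, 0.369 and 0.437 CPM in the parental and 1.53, 1.03 and 0.957 CPM in the knockout libraries (log2 fold change 1.56, FDR 0.0558). The non-coding LINC02875, 40653 bp upstream of TBX4, changed by 2.71 on the log2 scale (FDR 0.0636) on 4 to 56 reads per library. KLK11 near CD33 (2.89, FDR 0.165) and LY6D near LY6K (2.59, FDR 0.161) had large fitted changes that did not pass. Neither exceeded 54 reads in any library. Among the downward changes that did not pass were PJVK near TTN (-1.08, FDR 0.0988) and KLK6 near CD33 (-1.82, FDR 0.125). KLK6 was at 94.6 ± 40.4 CPM in the parental and 24.7 ± 14.2 CPM in the knockout libraries (SD, n = 3 each). Of the 11 KLK genes tested, 3 changed upward and none passed (median log2 fold change -0.578). CHTF8 and DERPC, which overlap the end of HAS3 on the other strand, changed by 0.26 (FDR 0.438) and 0.29 (FDR 0.577) on the log2 scale.

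**Figure D3:**
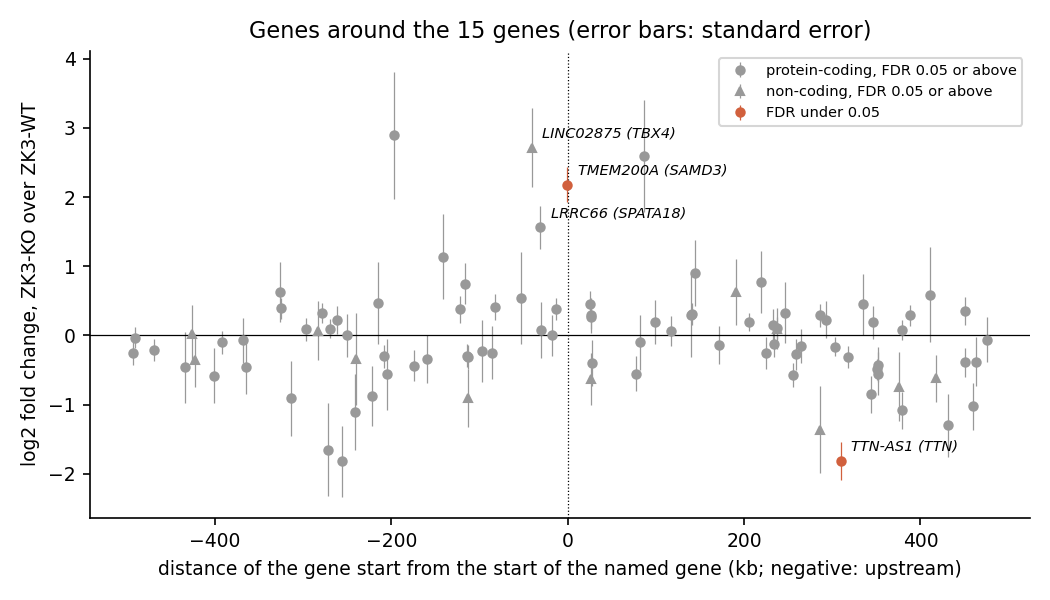
Log2 fold change of genes near the 15 genes (y axis, ZK3-KO over ZK3-WT; bars are standard errors) against the distance of their start from the start of the nearby gene (x axis, kb), with that gene in brackets. TMEM200A, 592 bp from SAMD3, and TTN-AS1, which overlaps TTN, are the points with an FDR under 0.05.

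No region of the genome held many of the genes. They lie on 10 chromosomes, with 3 on chromosome 2 (TTN, SNTG2 and KIF1A), 2 each on chromosomes 6, 8 and 17, and 1 each on the others, and no gene starts within 500 kb of another. Their usual tissues were as varied, with 2 genes known from myeloid cells (CD33 and AOAH), 2 from neurons (SNTG2 and KIF1A), 2 from testis (LY6K and SPATA18) and 1 each from striated muscle (TTN), ciliated cells (KIF19) and the mesenchyme of limb and lung (TBX4). Of 12 functional lists, which included gastric, enterocyte, enteroendocrine, germ line, neuronal and squamous genes, 11 held none of the 15 genes and the list of p53 targets held 1. Of 85 symbol roots that matched a gene, 4 held 1 of the 15 genes, and of these the roots CD and FAM group unrelated proteins. A root was matched only where a digit follows it directly. Other roots, such as ADGR, therefore matched no gene and were not counted, and ADGRD1 was missed. The kinesins, which were not among these roots, held 2 of the genes (KIF1A and KIF19) among 42. The FAM root contained FAM221A, which was at 1.91, 1.82 and 2.49 CPM in the parental and 0.110, 0 and 0 CPM in the knockout libraries (FDR 0.0286).

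The wording that these genes were switched on describes some of them better than others. The highest ZK3-WT value was below 0.5 CPM for 10 genes and at or above it for 5, namely HAS3, CD33, ADGRD1, SAMD3 and TTN. At least 1 ZK3-WT library had no read of SNTG2, DLC1, BMP2, SPATA18, AOAH and KIF19, and for the other 9 genes every ZK3-WT library held reads. In ZK3-KO cells the mean was below 3 CPM for 9 genes. Together the 15 genes took 5929 reads in the ZK3-WT and 70428 reads in the ZK3-KO libraries.

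**Figure D4:**
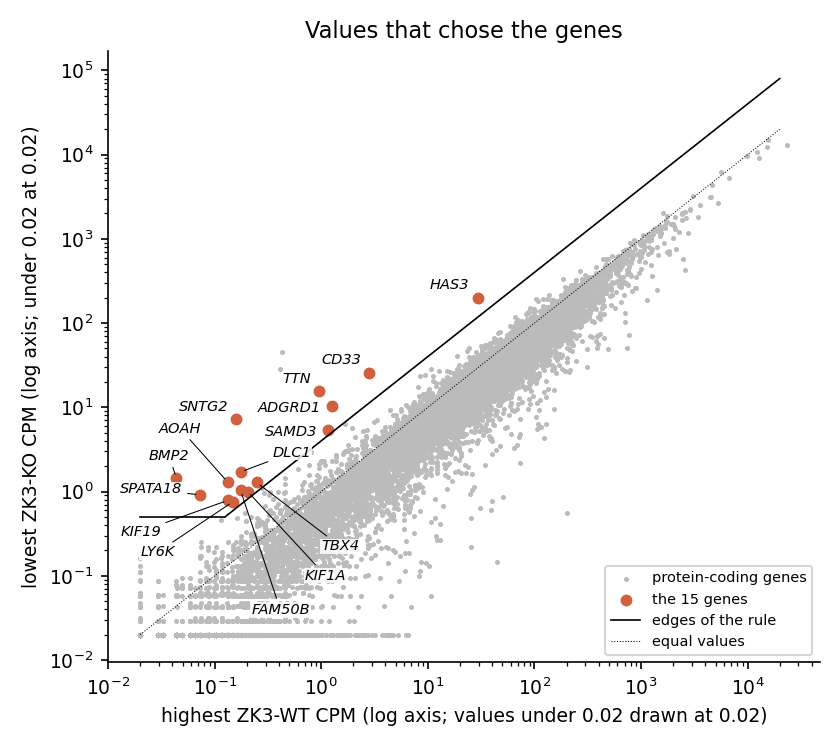
Lowest ZK3-KO CPM (y axis) against highest ZK3-WT CPM (x axis) of protein-coding genes, both on log axes, with the edges of the rule as solid lines; genes without a read in any library are not drawn. The 15 genes (orange) lie above the edges, HAS3 far to the right of the rest, and the 2 grey points above the edges are the genes left out by the rule.

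Scaled for length, the order of the genes in ZK3-KO cells was HAS3 (121 ± 29.6 TPM, SD, n = 3), CD33 (36.3 ± 0.300), SNTG2 (8.99 ± 0.486), SAMD3 (5.34 ± 1.32) and ADGRD1 (4.02 ± 0.362), followed by FAM50B (1.84 ± 0.672) and 9 genes at 0.440 to 0.928 TPM. Neighbours among those 9 genes lay within their spread of each other. Of the 15 only HAS3 and CD33 were above the median of 17.5 TPM of protein-coding genes with a mean of at least 0.5 TPM in ZK3-KO cells.

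The ZK3-KO libraries did not share 1 pattern over the genes. The highest value over the lowest was at most 1.5 for 9 genes and above 2 for TTN, KIF1A and SPATA18. Its median was 1.45, against 1.5 over all 12641 protein-coding genes at or above the floor in every ZK3-KO library. ZK3-KO replicate 3 was the lowest of the 3 libraries for 6 genes and the highest for 6 others. TTN, SPATA18, FAM50B and HAS3 were at 0.430, 0.474, 0.591 and 0.713 times the mean of replicates 1 and 2 in replicate 3, and KIF1A, LY6K and DLC1 were at 2.73, 1.83 and 1.48 times.

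**Figure D5:**
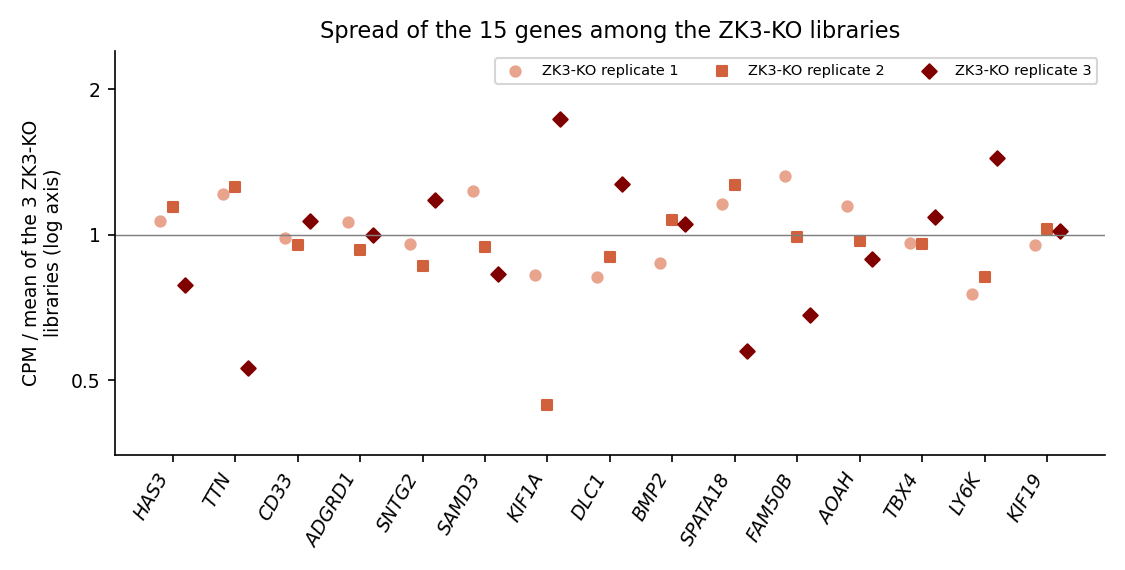
CPM of each gene in the 3 ZK3-KO libraries divided by the mean of those libraries (y axis, log axis), for the 15 genes (x axis). ZK3-KO replicate 3 (dark diamonds) is the lowest for genes such as TTN and SPATA18 and the highest for KIF1A, LY6K and DLC1, while CD33, ADGRD1, TBX4 and KIF19 stay near 1.

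The edge of the rule ran through a continuous range of values. Just inside the limit of 4 times were SAMD3 (4.71), KIF1A (4.92), LY6K (5.10), TBX4 (5.15) and FAM50B (5.89), and just outside were GRHL3 (3.90), LAMA4 (3.77), ABO (3.67), KLRG2 (3.33) and H4C12 (3.19). LAMA4, a laminin chain, was at 1.33, 1.67 and 1.53 CPM in the parental and 7.20, 6.29 and 8.29 CPM in the knockout libraries, as high as several of the 15 genes. GRHL3, a transcription factor of surface epithelia, was at 0.279, 0.266 and 0.160 CPM and at 4.04, 1.86 and 1.09 CPM, so the low value of ZK3-KO replicate 3 kept it out. CCDC198 and ATP8A2 met the fold but not the floor, with lowest ZK3-KO values of 0.294 and 0.339 CPM. Without ZK3-KO replicate 3, 29 genes met the rule. Outside the protein-coding genes, 4 of 26755 genes (0.0150%) met both limits. With the groups exchanged, 59 protein-coding genes met both limits (0.300% of 19672), or 57 after the same exclusions, so the mirrored rule chose more genes lower in ZK3-KO cells than the rule chose higher ones.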

How the data were processed

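Polyadenylated RNA (TruSeq Stranded mRNA kit, paired ends) of the parental line (ZK3-WT) and of the knockout line (ZK3-KO) was analysed, with 3 libraries per group. The authors deposited 1 table with counts of reads per gene and library, without normalization, beside FPKM values (per transcript length and library total) and TPM values (scaled by length to a common sum). The submitters' processing notes name Bowtie2 2.2.5 and hg19 (GRCh37). The paper's methods name Partek Flow with an Ensembl annotation and an ANOVA on TPM, whereas gene numbers of NCBI and transcripts of RefSeq stand in the table. The methods call the libraries of a group biological triplicates of the line, and ZK3-KO is 1 clonal line, so p-values measure the spread between cultures of these lines.

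CPM were computed from the deposited counts and the sum of each column (60827060 to 69739215 reads, so that 3 reads are 0.0430 to 0.0493 CPM). The members were chosen by these values and were not tested. The members, the gene lists and the tests were chosen with earlier results of these data known, and 12 lists of relatives were written once the members were known. Genes that are not members were tested with the quasi-likelihood test of edgeR 4.0.16 in R 4.3.3 (filterByExpr, TMM, genotype as the only factor, Benjamini-Hochberg over 18366 genes, FDR 0.05), and the script was tested on simulated data. No library was a copy of another (chi-square per degree of freedom 41.5 to 95.1 among ZK3-WT and 62.4 to 543 among ZK3-KO pairs, the highest with ZK3-KO replicate 3). Deviations from the group mean correlated at 0.294, 0.112 and 0.449 for same-numbered libraries (all above 0.1) and at -0.343 to 0.209 for other pairs. ZK3-KO replicate 2 correlated more with ZK3-WT replicate 1 (0.209) than with ZK3-WT replicate 2 (0.112). The pairing comes from the replicate numbers of the labels, and the main test did not use it. Alternatives were DESeq2 1.42.0 or limma 3.58.1 on log2(TPM + 1), other scalings and filters, a replicate block, each library left out in turn, and for the rule the TPM and FPKM values and other limits.

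All members are named. Of other genes past an FDR of 0.05, neighbours are named, and so are genes of some lists (at most 5 per list and direction). These are the lists and roots that held a member and the lists written once the members were known. Genes of the remaining lists that passed are not named. On the interferon response list, for example, 24 genes were tested, 12 passed downward and 0 upward. Further relatives and neighbours were named after their values were seen. Gene positions are from GENCODE 44 on GRCh37, matched by symbol. Promoters are from RefSeq on GRCh38.p14, of which the 250 bases before the start were used.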

Additional observations from a re-analysis of the deposited data

Results flagged for a closer look

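Outside the protein-coding genes, 4 non-coding genes of 26755 (0.0150%) also met the floor and the fold, and stand here because they lie in data the comparisons above do not use. The lowest ZK3-KO value was 1.74 CPM for LOC105372842, 1.06 CPM for CYP4F35P, 1.02 CPM for LINC02434 and 0.774 CPM for LOC105377607. LOC105372842 had values of 0.181, 0.0886 and 0.0583 CPM in the parental and 2.36, 1.74 and 2.16 CPM in the knockout libraries, in the order of replicates 1, 2 and 3. CYP4F35P, a pseudogene with related P450 genes, had 0, 0.177 and 0.204 CPM and 1.42, 1.06 and 3.06 CPM, in the same order. LINC02434 (chr4:189080859-189082311 of GRCh37) had 0, 0.177 and 0.0437 CPM and 1.51, 1.02 and 2.05 CPM, and LOC105377607 had 0, 0.0443 and 0.0437 CPM and 1.31, 0.774 and 2.38 CPM. ZK3-KO replicate 3 was the highest of the 3 for the last 3 of these genes.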

How the results depend on the processing

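The rule gave 15 genes, 17 with TMM scaling, 12 with a floor of 1 CPM, 10 with the deposited TPM (9 of them shared), 7 with the deposited FPKM (6 shared), 8 with a fold of 8, and 16 to 29 when 1 library was left out. A lower limit, a wider choice of genes or fewer libraries cannot drop a gene, and of the 5 alternatives that could, ADGRD1, CD33 and SNTG2 met the rule in 5 and KIF19 in 1. In edgeR's test, 150 genes were higher and 226 lower in ZK3-KO cells. Higher genes numbered 97 when all genes with at least 1 read were tested, 711 with DESeq2, 88 with limma on log2(TPM + 1) (294 lower), 1633 at an unadjusted p under 0.05, and 11 to 1399 when 1 library was left out. Lower genes numbered 795 with DESeq2, 1738 unadjusted and 38 to 1459 when 1 library was left out. The largest counts came without ZK3-KO replicate 3 (1399 and 1459), and without any other library at most 48 and 110 genes passed. With the replicate block, 178 genes were higher and 283 lower, and of TMEM200A, TTN-AS1, BMP5, BAX and MYL2 the last 2 lost their call. Without ZK3-KO replicate 3, where 1399 and 1459 of all 18872 genes tested passed, 8 of the 83 neighbouring genes passed upward and 12 downward. Their median was -0.112 with library totals alone (where the median of all genes was -0.0656), -0.0607 with the replicate block, 0.168 within 250 kb, 0.0713 within 1 Mb, and -0.1 to 0.0222 when 1 library was left out. The cause of these shifts was not tested. Depth limits KIF19, LY6K and TBX4 most, which had at most 99 reads in any library. Promoter shares rest on 14 promoters of 10 genes, with KIF1A and SAMD3 counted 3 times each.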
